A study of Mus musculus with 6 samples.

Results

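Rac GTPases and the exchange factors that load them with GTP were followed as 10 genes in RNA of whole mouse aorta: the GTPases Rac1, Rac2 and Rac3, and the exchange factors Vav1, Vav2, Vav3, Dock2, Prex1, Tiam1 and Tiam2. The genes were chosen by symbol, with earlier results of these data known, among the 18749 gene rows of the count files. All 10 had a row and passed the filter on low counts. Shares of members set beside shares of all genes are therefore descriptions, since the choice was not independent of the data. The comparison was between marrow transplant groups. In the first, Apoe-/- recipients received marrow from Apoe-/- donors that also carried Sept2C111A (Sept2C111A recipients, n = 3 libraries). In the other, Apoe-/- recipients received Apoe-/- marrow without it (control recipients, n = 3 libraries). Every mouse lacked apolipoprotein E and was infused with angiotensin II for 28 days, a regimen under which Apoe-/- mice develop aortic aneurysms. Sept2C111A is, by its name, a septin-2 in which a cysteine is exchanged for alanine, and the series title links the work to S-nitrosylated septin-2 of macrophages. The altered septin-2 was thus carried by cells of marrow origin, while the cells of the host's vessel wall kept the recipient's own genotype. The labels state neither the share of blood cells that came from the donor nor the age or sex of the mice.

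Rac proteins are small GTPases that switch between an inactive form bound to GDP and an active form bound to GTP. Active Rac drives actin assembly at the leading edge through the WAVE complex, and in phagocytes it switches on the NADPH oxidase that makes superoxide. Exchange factors release GDP from Rac: the Vav proteins act downstream of tyrosine kinases, Prex1 responds to G protein subunits and a phosphoinositide lipid, Dock2 serves leukocyte migration, and the Tiam proteins act in many cells that adhere. Rac1 is made in nearly every cell, whereas Rac2, Vav1 and Dock2 are made mainly in blood cells, so the 10 genes divide into 3 blood-cell members and 7 others. In whole tissue, fewer blood cells and less RNA of a gene per blood cell cannot be told apart.

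The promoters of Vav1, Dock2 and Prex1 are shown because these were the exchange factors of smallest p in the comparison below. The windows run from 250 bases before to 50 bases after the RefSeq start site (GRCm38.p6), 5′ to 3′ on the gene's strand. Capitals mark GAGGAA, the core of the sequence bound by PU.1, a transcription factor of the ETS family that blood cells need, or its reverse complement TTCCTC.
Vav1, chr17:57278850-57279149, plus strand: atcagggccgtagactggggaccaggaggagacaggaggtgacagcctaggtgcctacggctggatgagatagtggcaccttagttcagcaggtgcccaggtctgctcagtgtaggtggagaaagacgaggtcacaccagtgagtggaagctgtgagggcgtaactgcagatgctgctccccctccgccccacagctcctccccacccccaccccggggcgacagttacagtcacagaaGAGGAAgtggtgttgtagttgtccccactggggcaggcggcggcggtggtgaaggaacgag
Dock2, chr11:34783856-34784155, minus strand: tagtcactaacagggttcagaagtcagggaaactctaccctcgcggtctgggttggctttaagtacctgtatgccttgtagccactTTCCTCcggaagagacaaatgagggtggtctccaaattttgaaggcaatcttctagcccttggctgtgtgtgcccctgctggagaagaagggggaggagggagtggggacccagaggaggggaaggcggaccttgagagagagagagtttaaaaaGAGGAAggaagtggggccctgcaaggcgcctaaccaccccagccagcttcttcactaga
Prex1, chr2:166713783-166714082, minus strand: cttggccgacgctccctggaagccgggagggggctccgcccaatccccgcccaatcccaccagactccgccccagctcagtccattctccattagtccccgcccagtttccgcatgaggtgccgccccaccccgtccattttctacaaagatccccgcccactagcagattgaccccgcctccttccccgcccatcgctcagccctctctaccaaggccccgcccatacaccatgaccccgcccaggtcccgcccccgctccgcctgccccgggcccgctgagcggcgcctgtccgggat

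The Vav1 window held 1 match, which begins 11 bases before the start site. The Dock2 window held 2, of which one begins 9 bases before the start site and the other, on the opposite strand, has its first printed base 164 bases before it. The Prex1 window held 0 and was rich in CG dinucleotides, with 24 against 11 in Vav1 and 5 in Dock2, where the median window of the table held 7. GAGGAA on either strand occurred in 28.3% of all 32851 promoter windows of the table. TGTGGT, the core bound by RUNX factors, was found on neither strand of the 3 printed windows, and on either strand in 16.8% of all windows. Among the members, 8 had an entry, with 13 windows in all, and Rac1 and Rac2 had none. GAGGAA was in 3 of the 13 member windows, those of Vav1, Dock2 and Vav2. These matches describe letters in a window and were not tested for binding.

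Library totals ran from 17082719 to 20494928 expected counts, and the members held between 67 counts (Rac3 in control library 1) and 7232 counts (Rac1 in control library 3) per library. Levels are CPM (counts scaled to a common library size), and a fold change is given as log2 of Sept2C111A over control recipients. Controls 1 and 3 stood far from the other 4 libraries on the first principal components, which held 46.6% and 28.1% of the variance. Markers of smooth muscle, the main cell of the aortic wall, summed to between 15071 and 22744 CPM in Sept2C111A libraries and between 5710 and 17748 CPM in control libraries, the lowest being control 3. Fibroblast markers summed to between 9800 and 12254 CPM in Sept2C111A libraries. In control libraries 1, 2 and 3 they summed to 6896, 12591 and 25607 CPM. Of these 6 markers, 4 lay wholly higher in Sept2C111A libraries, as did 11.2% of all genes tested. None of the 6 smooth muscle, 6 endothelial or 6 fibroblast markers was at 0 in any library.

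The blood-cell members Vav1, Rac2 and Dock2, together with Prex1, had the lowest levels relative to control recipients. The mean level of Vav1 was 3.48-fold lower, that of Rac2 3.40-fold, that of Prex1 1.89-fold and that of Dock2 1.81-fold. The other members, Rac1, Rac3, Vav2, Vav3, Tiam1 and Tiam2, had log2 fold changes between -0.35 and 0.08. In edgeR's two-sided quasi-likelihood test with Benjamini-Hochberg adjustment over 14466 genes, 0 members and 0% of all genes passed at 0.05 in either direction (smallest adjusted p = 0.316). At an unadjusted p under 0.05, 4 of the 10 members (Rac2, Vav1, Prex1 and Dock2) were lower and 0 higher, where 8.83% of all genes tested were lower and 6.17% higher. DESeq2 called 2 members lower, Vav1 (adjusted p = 0.00862) and Prex1 (adjusted p = 0.0402), among the 2.89% of genes it called lower and the 0.985% it called higher. Limma-voom with library quality weights called 0 of the members and 0% of all genes. The median log2 fold change was -0.29 over the members and 0.00 over all genes tested, and 8 of the 10 members were below 0, as were 49.9% of all genes.

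**Figure D1:**
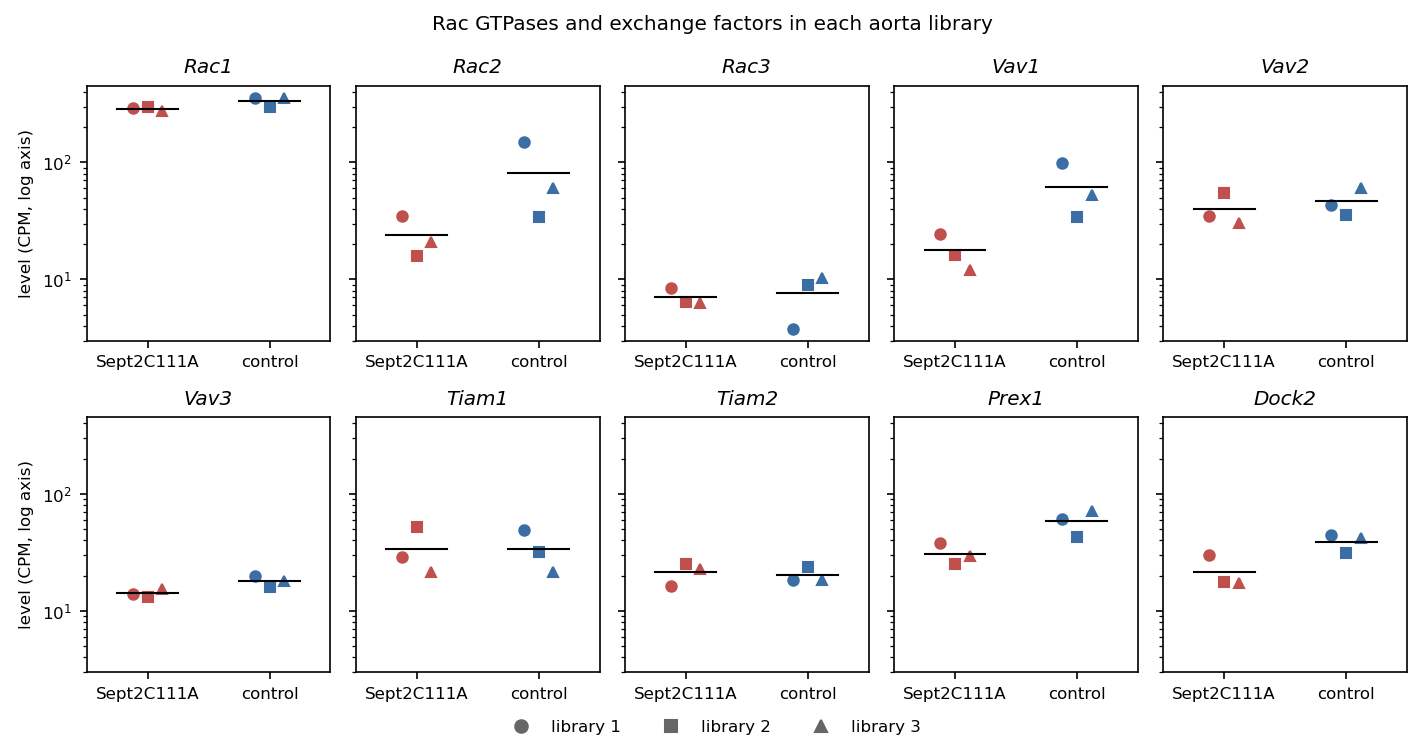
Level of each member in CPM (log axis) in the 3 Sept2C111A libraries (red, left) and the 3 control libraries (blue, right), with the group mean as a line and the library number as the symbol. Vav1, Prex1, Dock2 and Vav3 lay lower in every Sept2C111A library than in every control library, and Rac1 spread least, from 275 to 358 CPM over all 6.

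Among the GTPases, Rac1, the form found in nearly every cell, had the steadiest level. It stood at 291, 297 and 275 CPM in Sept2C111A libraries 1, 2 and 3, against 354, 297 and 358 CPM in control libraries 1, 2 and 3. The groups touched at control 2, which lay just under Sept2C111A library 2. Its log2 fold change was -0.22 (SE 0.15), with a 95% interval of -0.58 to 0.14 and an edgeR adjusted p of 0.471.

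Rac2, the GTPase of blood cells, was at 34.9, 15.9 and 20.9 CPM in Sept2C111A libraries and at 149, 34.2 and 60.3 CPM in control libraries. Control 1 was far above the rest, and control 2 lay below Sept2C111A library 1, so the groups overlapped. The log2 fold change was -1.76 (SE 0.59, 95% interval -3.18 to -0.35, unadjusted p = 0.0219, edgeR adjusted p = 0.316, DESeq2 adjusted p = 0.0516). Without control 1 it was -0.97, with an unadjusted p of 0.0554 in edgeR. Rac3, a close relative of Rac1 best known from the nervous system, was at 8.41, 6.35 and 6.23 CPM in Sept2C111A libraries and at 3.74, 8.94 and 10.3 CPM in control libraries. Control 1 held the least Rac3 and controls 2 and 3 the most, and the log2 fold change of -0.13 (SE 0.40) had a 95% interval of -1.09 to 0.83.

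**Figure D2:**
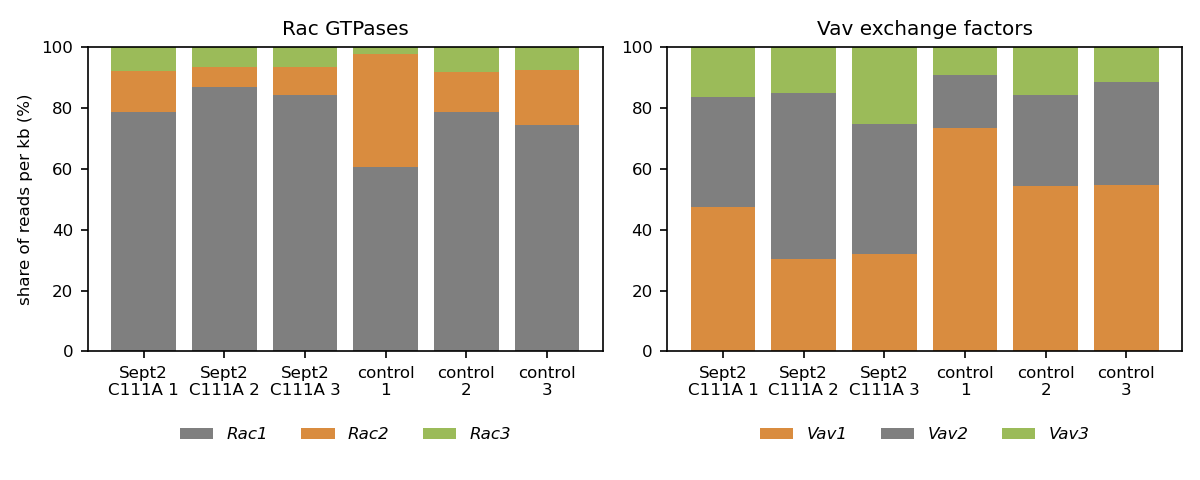
Share of each gene in the reads per kilobase of the Rac GTPases (left) and of the Vav exchange factors (right), in percent, for the 3 Sept2C111A and the 3 control libraries. Vav1 made up 30.3% to 47.5% of the Vav family in Sept2C111A libraries and 54.4% to 73.5% in control libraries, while the Rac2 shares of the groups overlapped.

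Shares within a family compare genes of the same library and do not depend on how libraries were scaled. Per kilobase of merged exon length, Rac2 made up 13.6%, 6.71% and 9.27% of the Rac GTPase reads in Sept2C111A libraries, against 37.1%, 13.15% and 18.2% in control libraries. Control 2 and Sept2C111A library 1 were level in this share. Rac1 made up 78.5% to 86.8% of the reads in Sept2C111A libraries and 60.7% to 78.6% in control libraries, and so remained the most abundant Rac in each of the 6. RSEM divides reads that match several genes, and the 3 Rac genes are related in sequence, so these shares carry an error of assignment that the counts do not show.

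Vav1, the Vav of blood cells, which acts behind antigen, Fc and integrin receptors, had the largest difference of the 10 members. It was at 24.6, 16.3 and 12.1 CPM in Sept2C111A libraries, against 98.02, 34.2 and 52.4 CPM in control libraries. The groups did not overlap. The log2 fold change was -1.80 (SE 0.45, 95% interval -2.88 to -0.72, unadjusted p = 0.00623, edgeR adjusted p = 0.316), and it was -1.28 without control 1. The DESeq2 call of Vav1 was lost without control 1 (adjusted p = 0.0605), without Sept2C111A library 2 (adjusted p = 0.0517) and without Sept2C111A library 3 (adjusted p = 0.143).

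Vav2, the Vav of most tissues, was at 35.1, 55.1 and 30.3 CPM in Sept2C111A libraries and at 43.4, 35.2 and 60.8 CPM in control libraries. The groups were interleaved, and the 95% interval of its log2 fold change of -0.21 ran from -0.92 to 0.50. Vav3, best known from osteoclasts, was at 13.9, 13.1 and 15.5 CPM in Sept2C111A libraries and at 20.0, 16.1 and 17.9 CPM in control libraries. All 3 Sept2C111A values lay under all 3 control values by a small margin, with a log2 fold change of -0.35 (SE 0.16, 95% interval -0.73 to 0.03, edgeR adjusted p = 0.351). Within the Vav family, the share of Vav1 per kilobase was 47.5%, 30.3% and 32.0% in Sept2C111A libraries and 73.5%, 54.4% and 54.7% in control libraries. These shares did not overlap. Vav2 made up 36.1% to 54.7% in Sept2C111A libraries and 17.4% to 33.9% in control libraries, also without overlap, although its level in CPM was interleaved. Shares of a family add up to the whole, so a lower share of Vav1 goes with a higher share of the others.

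Dock2, which activates Rac in migrating leukocytes with its partner Elmo1, was at 30.0, 17.6 and 17.2 CPM in Sept2C111A libraries and at 44.1, 31.4 and 41.9 CPM in control libraries. The groups did not overlap, but Sept2C111A library 1 came close to control 2. Its log2 fold change was -0.86 (SE 0.26, 95% interval -1.50 to -0.22, unadjusted p = 0.0161, edgeR adjusted p = 0.316, DESeq2 adjusted p = 0.0893). Unlike Rac2 and Vav1, Dock2 did not stand out in control 1, and without that library its log2 fold change was -0.75.

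Prex1, an exchange factor of neutrophils, macrophages and other cells, was at 38.4, 25.2 and 29.1 CPM in Sept2C111A libraries and at 60.8, 42.9 and 71.2 CPM in control libraries. The groups did not overlap, and control 3 was the highest. The log2 fold change was -0.91 (SE 0.24, 95% interval -1.50 to -0.33, unadjusted p = 0.00823, edgeR adjusted p = 0.316) and ranged from -1.09 to -0.74 with 1 library left out. DESeq2 called Prex1 without Sept2C111A library 1 (adjusted p = 0.0360) and without control 2 (adjusted p = 0.00157), and did not call it in the other 4 such fits, where its adjusted p ran from 0.144 to 0.324.

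Tiam1, which couples cell adhesion and growth factor signals to Rac1, was at 28.7, 51.9 and 21.3 CPM in Sept2C111A libraries and at 48.6, 31.6 and 21.6 CPM in control libraries. The values spread more within each group than between the groups, with a coefficient of variation of 47.1% in Sept2C111A recipients and 40.3% in control recipients. The log2 fold change of 0.00 (SE 0.42) had a 95% interval of -1.002 to 1.01, not adjusted for the number of genes tested. Differences of up to about 2-fold in either direction are thus compatible with these libraries for Tiam1. Tiam2, a relative best known from neurons, was at 16.4, 24.9 and 22.9 CPM in Sept2C111A libraries and at 18.4, 23.9 and 18.4 CPM in control libraries. Its groups overlapped throughout, and its log2 fold change of 0.08 had a 95% interval of -0.42 to 0.59.

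**Figure D3:**
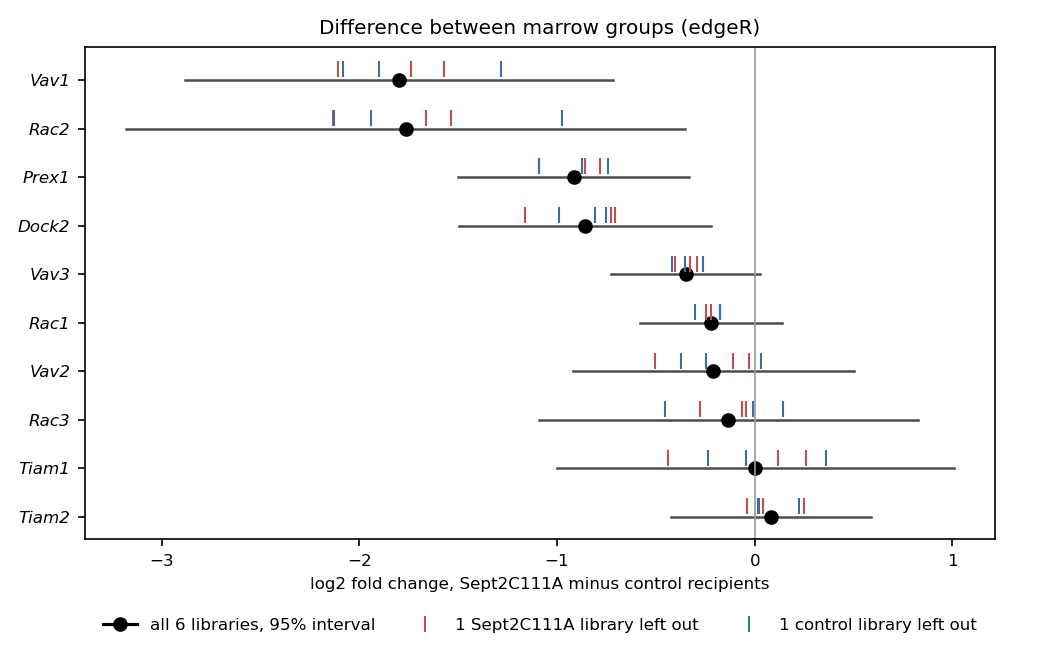
Log2 fold change of each member (black point) with its 95% interval (bar), and the values when 1 Sept2C111A library (red ticks) or 1 control library (blue ticks) was left out. The intervals of Vav1, Rac2, Prex1 and Dock2 lie below 0, before adjustment for the number of genes tested, and the rightmost ticks of Vav1 (-1.28) and Rac2 (-0.97) are those without control 1.

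In 4 of the 10 members (Vav1, Vav3, Prex1 and Dock2) each Sept2C111A library lay below each control library, and in 0 each lay above. The same held for 11.9% and 11.2% of all genes tested. With 1 library left out, between 4 and 6 members lay wholly lower and 0 wholly higher, against 14.8% to 20.1% of all genes lower and 14.2% to 20% higher. Over these 6 fits, the log2 fold change of Rac2 ranged from -2.13 to -0.97, that of Vav1 from -2.11 to -1.28 and that of Dock2 from -1.16 to -0.70. With control 2 as the only control, a setting chosen after seeing the data, the log2 fold changes were -0.52 for Rac2, -0.95 for Vav1, -0.47 for Prex1 and -0.54 for Dock2, and 0 members had an unadjusted p under 0.05.

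Per kilobase of exon, Rac1 was the most abundant member in both groups, at 64.0 ± 2.59 CPM per kb in Sept2C111A recipients and 74.7 ± 7.59 CPM per kb in control recipients (SD, n = 3 each). In Sept2C111A recipients Rac2 followed at 7.70 ± 3.18 CPM per kb, then Vav2 at 5.81 ± 1.90, Rac3 at 5.41 ± 0.945 and Vav1 at 4.79 ± 1.73 CPM per kb, neighbours that lay within each other's spread. Tiam1, Prex1, Vav3, Dock2 and Tiam2 came next, between 3.38 and 1.68 CPM per kb. In control recipients the order after Rac1 was Rac2 at 26.2 ± 19.4, Vav1 at 16.7 ± 8.92, Vav2 at 6.72 ± 1.89, Rac3 at 5.93 ± 2.69 and Prex1 at 5.68 ± 1.39 CPM per kb. Rac2 and Vav1 were within each other's spread there, as were Vav2, Rac3 and Prex1. Dock2, Tiam1 and Vav3 were close to each other at 3.43, 3.38 and 3.00 CPM per kb, and Tiam2 was last at 1.59.

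Leukocyte markers moved with the blood-cell members. The summed level of 7 pan-leukocyte genes was 643, 441 and 387 CPM in Sept2C111A libraries and 2345, 744 and 1237 CPM in control libraries, and all 7 had a log2 fold change below 0. Ptprc, which encodes the leukocyte surface phosphatase CD45, stood at 72.6, 43.0 and 45.5 CPM in Sept2C111A libraries and at 176, 83.3 and 109 CPM in control libraries. The 6 neutrophil markers summed to between 15.8 and 28.8 CPM in Sept2C111A libraries and to 2911, 88.3 and 331 CPM in control libraries 1, 2 and 3. The summed level of 7 macrophage markers overlapped between the groups, at 727 to 996 CPM in Sept2C111A libraries and 742 to 1193 CPM in control libraries. Even so, 2 of the 7 lay wholly lower in Sept2C111A libraries, against 11.9% of all genes tested. A log2 fold change below 0 was found in 5 of the 7, against 49.9% of all genes. B cell markers (5) summed to 2.06 to 8.09 CPM in Sept2C111A libraries and 9.41 to 32.9 CPM in control libraries, and none of the leukocyte, neutrophil, macrophage or B cell markers was at 0 in any library. The 5 T cell markers with a row summed to 3.37 to 8.41 CPM in Sept2C111A libraries and 5.10 to 7.12 CPM in control libraries. Erythroid genes, a sign of blood in the tissue, summed to between 149 and 522 CPM in Sept2C111A libraries and between 51.7 and 1286 CPM in control libraries, and of these Slc4a1 was at 0 in some libraries. The part of these cell types in the values of Rac2, Vav1, Dock2 and Prex1 was not tested.

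Set against the leukocyte markers of the same library, the members differed in how the groups compared. Rac2 held 54.3, 35.9 and 54.0 reads per 1000 leukocyte marker reads in Sept2C111A libraries and 63.6, 46.0 and 48.7 in control libraries, and the groups overlapped. Vav1 was lower by a small margin, at 38.3, 36.9 and 31.2 reads per 1000 marker reads in Sept2C111A libraries and 41.8, 46.0 and 42.3 in control libraries, without overlap. Relative to Ptprc alone, Vav1 was at 0.340, 0.379 and 0.265 in Sept2C111A libraries and 0.555, 0.410 and 0.480 in control libraries, again without overlap. Dock2 was at 46.7, 39.8 and 44.4 reads per 1000 marker reads in Sept2C111A libraries and 18.8, 42.3 and 33.9 in control libraries, with overlap. The Dock2 value of control 1 was the lowest of the 6. Prex1 gave 59.7, 57.1 and 75.2 reads per 1000 marker reads in Sept2C111A libraries and 25.9, 57.6 and 57.5 in control libraries, so its groups overlapped too. Between the blood-cell members themselves, Vav1 had 0.821, 0.928 and 0.702 reads per Dock2 read in Sept2C111A libraries and 2.22, 1.09 and 1.25 in control libraries, without overlap. Rac1 also separated, higher in Sept2C111A libraries, at 453, 674 and 710 reads per 1000 marker reads against 151, 399 and 289 in control libraries. The share of all genes whose ratios do not overlap was not worked out. The separation of Vav1 is therefore not shown to be particular to it. These ratios are descriptions with no test.

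**Figure D4:**
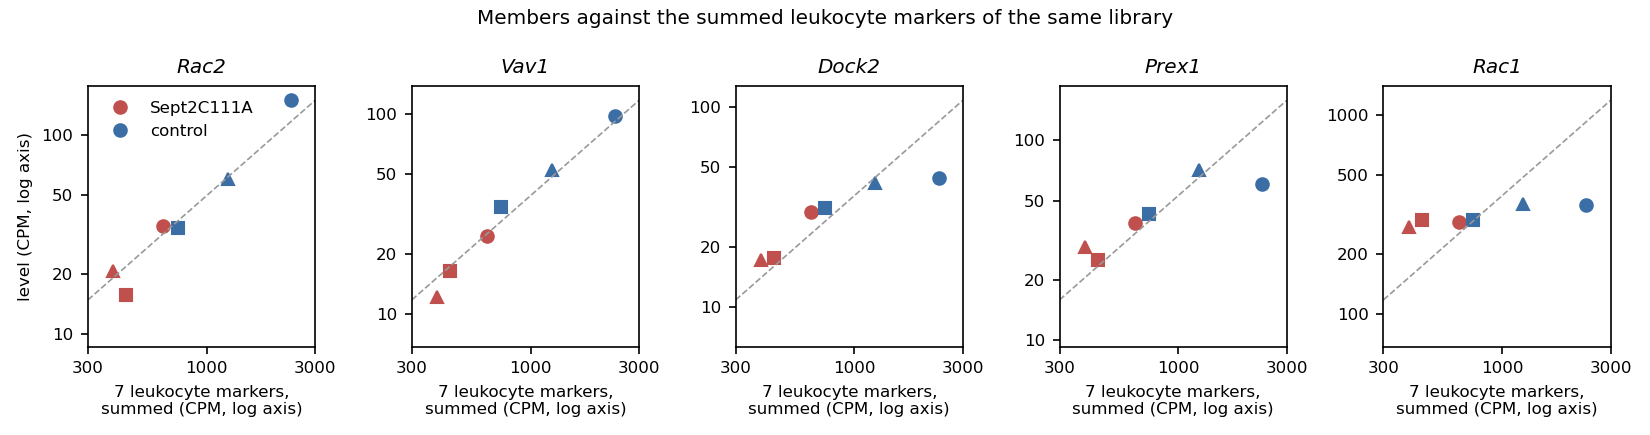
Level of Rac2, Vav1, Dock2, Prex1 and Rac1 (CPM, log axis) against the summed level of 7 leukocyte markers (CPM, log axis) in each library, with Sept2C111A libraries in red and control libraries in blue (circle, square and triangle for libraries 1, 2 and 3). The dashed line marks a constant ratio of gene to markers: Rac2 and Vav1 lie near it, with Vav1 slightly lower against the markers in Sept2C111A libraries, Dock2 and Prex1 lie below it in control 1, and Rac1 stays nearly level while the markers run from 387 to 2345 CPM.

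The genes whose pattern over the 6 libraries was most like that of each blood-cell member were found by the root mean square difference of centred log2 CPM, over 10414 genes with a mean of at least 10 CPM. For Rac2 these were Csf2rb2, Ptpn6, Coro2a, Cd52 and Coro1a, at differences of 0.14 to 0.19, where the median gene was at 1.09. Ptpn6 encodes the phosphatase SHP-1 of blood cells, and Cd52 and Coro1a, an actin-binding protein of leukocytes, were among the 7 leukocyte markers. For Vav1 they were Cd300lb, Btk, Tubb3, Tnfrsf13b and Slc11a1, at 0.11 to 0.18 (median gene 1.05). Btk is a tyrosine kinase of B cells and myeloid cells, and Slc11a1 a metal transporter of the phagosome. For Dock2 they were Pik3cd, Lrrc25, Rps6ka1, Sirpa and Tlr1, at 0.09 to 0.15 (median gene 0.60). Of these, Pik3cd is the leukocyte form of phosphoinositide 3-kinase and Sirpa a receptor of myeloid cells. Roles are given for only some of the listed genes and do not stand for the rest, among them Coro2a, Tubb3 and Rps6ka1. Rac2 and Vav1 differed from each other by 0.31, Rac2 and Dock2 by 0.61, and Vav1 and Dock2 by 0.54. Rac1 was matched most closely by Sh2b3, Dazap2, Gmfb, Relb and Mre11a, at 0.02 to 0.03 (median gene 0.28). Rac1 differed from Rac2 by 0.94, from Vav1 by 0.89 and from Dock2 by 0.43. By this measure Dock2 was closer to Rac1 than to Rac2 or Vav1, although Rac1 ranked only 1128 from Dock2 among the 10414 genes. The measure mixes the size of a gene's changes with their direction, so this nearness does not show a shared pattern. The difference was not scaled to a gene's own variation, so the median gene lies further from members that vary more. The 6 points of each pattern are the same libraries and share their depth and cell content.

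Genes that act just before and just after Rac were examined as lists, also chosen with earlier results of these data known. None of their genes passed in edgeR once p was adjusted over all 14466. Of all genes tested, 49.9% had a log2 fold change below 0, the share to set beside each list. The 4 subunits examined of the phagocyte NADPH oxidase, the enzyme that Rac2 switches on, had log2 fold changes below 0, with a median of -1.34. DESeq2 called 2 of them lower, Ncf1 and Ncf4, where it called 2.89% of all genes lower. Ncf1, the organizer subunit p47phox, was at 34.9, 33.7 and 29.2 CPM in Sept2C111A libraries and at 384, 69.5 and 87.8 CPM in control libraries, with a log2 fold change of -2.47 (SE 0.68) that was -1.26 without control 1. Ncf4, the subunit p40phox, had a log2 fold change of -1.98 with all libraries and -1.13 once control 1 was left out, and Cyba, the smaller membrane subunit, of -0.70. Cybb, the catalytic subunit, overlapped between the groups, at 79.3, 41.8 and 45.6 CPM in Sept2C111A libraries and 31.0, 66.1 and 88.0 CPM in control libraries. Its log2 fold change was -0.15 in edgeR and 0.12 under limma-voom. With 1 library left out it ran from -0.49 (without Sept2C111A library 1) to 0.19 (without control 3), so its sign was not settled.

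The kinases and adaptors that act before Vav and Dock2 had 17 of 17 members below 0 and a median log2 fold change of -1.12, and 12 were lower at an unadjusted p under 0.05, where 8.83% of all genes were. DESeq2 called 7 of them lower and 0 higher, against 2.89% and 0.985% of all genes. Pik3r5, a regulatory subunit of phosphoinositide 3-kinase gamma, was at 16.0 ± 3.46 CPM in Sept2C111A recipients and 37.8 ± 11.6 CPM in control recipients, a log2 difference of -1.23 (SE 0.28) that DESeq2 called at an adjusted p of 0.00792. Lcp2, which encodes the adaptor SLP-76 that binds Vav1, was at 18.0, 10.9 and 9.46 CPM in Sept2C111A libraries and at 68.1, 22.3 and 51.5 CPM in control libraries, without overlap. The log2 difference was -1.89 (SE 0.46), and DESeq2 gave Lcp2 an adjusted p of 0.00612. Sh3bp2, an adaptor that also binds Vav proteins, had a log2 fold change of -1.12 (SE 0.28).

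Among the effectors and the WAVE complex, 15 of 19 genes were below 0, with a median log2 fold change of -0.37. At an unadjusted p under 0.05, 5 were lower and 0 higher, against 8.83% and 6.17% of all genes. Nckap1l, the blood-cell subunit of the WAVE complex known as HEM1, was at 57.2, 44.5 and 37.2 CPM in Sept2C111A libraries. In control libraries it was at 156, 66.4 and 108 CPM. It was the only gene of the list that DESeq2 called (log2 fold change -1.25, adjusted p = 0.0241), where DESeq2 called 2.89% of all genes lower. Cyfip1, a subunit of the complex in most cells, differed by -0.37 on the log2 scale (SE 0.14), and Limk1, the kinase that inactivates cofilin, by -0.41 (SE 0.14). The other Rac exchange factors had 15 of 25 genes below 0 and a median of -0.04, with 2 lower and 1 higher at an unadjusted p under 0.05, shares no larger than the 8.83% and 6.17% of all genes. Dock6, an exchange factor for Rac and Cdc42, was at 144 ± 14.8 CPM in Sept2C111A recipients and 98.5 ± 23.1 CPM in control recipients, without overlap. Def6, an exchange factor of lymphocytes, had a log2 fold change of -0.83 and Dock4 of -0.44.

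Proteins that turn Rac off or hold it in the cytosol gave 11 of 16 genes below 0, a median log2 fold change of -0.29, and 3 lower and 2 higher at an unadjusted p under 0.05, against 8.83% and 6.17% of all genes. Arhgap24, a GTPase-activating protein for Rac that binds filamin, was at 54.4, 40.5 and 49.0 CPM in Sept2C111A libraries and at 26.1, 37.1 and 32.0 CPM in control libraries. Chn2, the Rac GTPase-activating protein beta-chimaerin, was at 7.93 ± 0.888 CPM in Sept2C111A recipients and 5.00 ± 0.313 CPM in control recipients. Abr, which acts on Rac in phagocytes, was at 67.5, 55.6 and 63.6 CPM in Sept2C111A libraries. In control libraries it was at 141, 74.6 and 109 CPM. The groups did not overlap in these 3 genes, which were named for their small p. Over the 16 genes, 3 lay wholly lower and 2 wholly higher, against 11.9% and 11.2% of all genes tested.

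**Figure D5:**
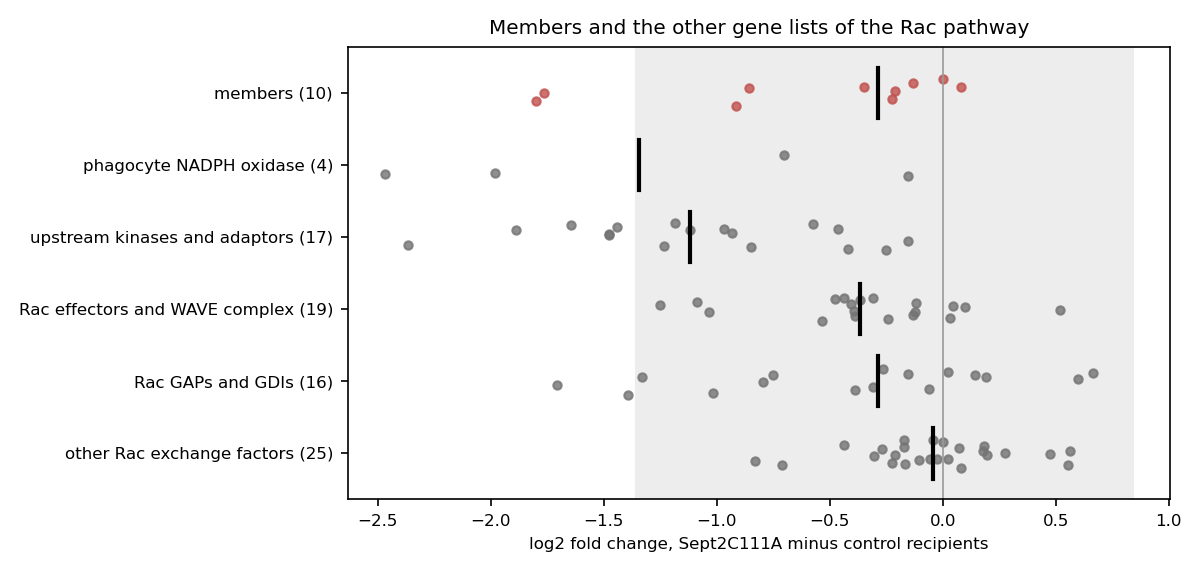
Log2 fold change of each tested gene of the members (red) and of 5 other lists of the Rac pathway (grey), with the number of genes in brackets and the list median as a black line. The grey band spans the 5th to the 95th percentile of all 14466 genes (-1.36 to 0.84), and the medians of the oxidase (-1.34) and of the upstream kinases and adaptors (-1.12) lie lowest.

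Positions of the members are from GENCODE vM21 on mm10. Rac1 is on chromosome 5 (143503634 to 143528036, minus strand), Rac2 on chromosome 15 (78559167 to 78572783, minus strand) and Rac3 on chromosome 11 (120721470 to 120723969, plus strand). Vav1 is on chromosome 17 (57279100 to 57328031, plus strand), Vav2 on chromosome 2 (27262104 to 27427033, minus strand) and Vav3 on chromosome 3 (109340653 to 109685698, plus strand). Dock2 is on chromosome 11 (34226815 to 34783892, minus strand), Prex1 on chromosome 2 (166566342 to 166713832, minus strand), Tiam1 on chromosome 16 (89787111 to 90143769, minus strand) and Tiam2 on chromosome 17 (3326573 to 3531344, plus strand). Exons of Rac1 overlap those of Daglb on the opposite strand (mean 23.4 CPM over the 6 libraries) and exons of Tiam2 those of Tfb1m (4.96 CPM), and without a stated strand setting the reads of such pairs cannot be told apart.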

How the data were processed

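RNA of whole aorta was sequenced as 6 libraries after TRIzol extraction and capture on oligo(dT) beads, per the labels' protocols. The authors deposited expected counts per gene, 1 file per library, not normalized. Tools named in the submitters' processing notes are RSEM 1.3.1, Bowtie2 and DESeq2 1.4.5, with mm10 as the build. The annotation, the strand setting and any read filter are not given there. Groups come from the sample titles. In 1 Sept2C111A file (replicate 3) the column heading carries another library number than the file, and GEO's own record of its sample was followed.

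Rounded counts were tested with edgeR 4.0.16 in R 4.3.3 (filterByExpr minimum count 10, TMM scaling, two-sided quasi-likelihood F test), adjusted over the 14466 genes tested. The 95% intervals of fold changes come from the same fit. DESeq2 1.42.0 on all rows with a count, limma 3.58.1 (voom with quality weights), RLE factors, no filter, a replicate block and leaving out each library were the alternatives. P-values measure the spread between 3 libraries per group, and the sample titles do not say whether a library holds 1 mouse or several. Replicates differed beyond sampling noise (chi-square per degree of freedom 50.2 to 237), so none was counted as a duplicate. Steps were checked on simulated data. Levels per kilobase use merged exon lengths, and sequences are from RefSeq (GRCm38.p6). Intervals and low values reflect 17082719 to 20494928 counts per library.

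The members and gene lists were chosen with earlier results of these data known. Besides the members, the text names the 3 genes of smallest p in each pathway list, 4 oxidase subunits, Ptprc and the 5 genes most alike to Rac1, Rac2, Vav1 and Dock2. A further oxidase subunit and a list are not reported here.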

Additional observations from a re-analysis of the deposited data

How the results depend on the processing

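Under every alternative edgeR and limma-voom called 0 members and 0 genes in all, while DESeq2 called 145 genes higher, 425 lower and 2 members, Vav1 and Prex1. The number of members lower at an unadjusted p under 0.05 was 4 with all libraries (8.83% of all genes), 2 under limma-voom (7.7%), 2 to 4 with 1 library left out (3.63% to 11.7%; 2 without Sept2C111A library 2 or 3) and 0 with control 2 as the only control (2.29%). The number of members called by DESeq2 with 1 library left out ran from 0 to 4: it was 3 without Sept2C111A library 1, 0 without Sept2C111A library 2, Sept2C111A library 3 or control 1, 4 without control 2 and 1 without control 3. DESeq2's calls over all genes in these fits ran from 20 higher and 96 lower without Sept2C111A library 3 to 740 higher and 1027 lower without control 2, the fit that called 4 members. Rac2, Vav1, Vav3, Prex1, Dock2 and Rac1 stayed below 0 in every fit. Members near 0 changed sign: Tiam1 was at -0.094 under limma-voom and at -0.44 to 0.36 with 1 library left out, Tiam2 at -0.19 under limma-voom, -0.16 with control 2 alone and -0.040 to 0.25 with 1 library left out, Vav2 at 0.19 with control 2 alone and -0.50 to 0.032 with 1 library left out, and Rac3 at -0.45 to 0.14 with 1 library left out. The cause was not tested. Replicate numbers did not pair the libraries (correlation of same-numbered deviations 0.005, 0.15 and -0.166). With the replicate number as a block, 0 genes passed, the log2 fold change was -1.73 for Vav1, -1.58 for Rac2 and -0.020 for Tiam1, and no member's call changed. Using the longest transcript in place of the merged exon length gave 3.40 in place of 1.63 CPM per kb for Tiam2 and 4.74 in place of 2.66 for Dock2, so the order of the low members depends on it. Rac3, with 67 to 209 counts per library, is the member that depth limits most.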

Other observations

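Relative to Ptprc of the same library, Cybb was at 1.09, 0.972 and 1.00 in Sept2C111A libraries and at 0.176, 0.794 and 0.807 in control libraries, and so was higher in each Sept2C111A library. Ncf1, relative to Ptprc, was at 0.481, 0.784 and 0.642 in Sept2C111A libraries and at 2.17, 0.835 and 0.805 in control libraries, and so was lower in each Sept2C111A library. Per 1000 leukocyte marker reads, however, Ncf1 was at 54.4, 76.4 and 75.4 in Sept2C111A libraries and at 164, 93.5 and 71.0 in control libraries, and the groups overlapped. Control 1 held the lowest Cybb and the highest Ncf1 value of the 6, as well as the highest summed level of neutrophil markers, 2911 CPM. These ratios were chosen with the values in view and carry no test.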
